A study of Mus musculus with 6 samples.

Results

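The 39 genes described here are genes of meningeal fibroblasts and of the extracellular matrix that these cells lay down. They were taken by name, from a list drawn up with earlier results of these data known, and all 39 were found among the 27578 named genes of the array, with 50 probes in all. RNA of brain tissue was measured on 6 Agilent 1-colour arrays, 3 from male Pla2g2e-deficient mice (knockout, replicates 1 to 3) and 3 from male wild-type mice (replicates 1 to 3). All 6 samples have the C57BL/6N background and all are titled as sham-operated, while the treatment field of every sample speaks of brain ischemia made by closing the middle cerebral artery for 60 min. The labels give no age, do not say which part of Pla2g2e was deleted and do not say that replicates were separate animals, so the p-values reflect only how far these samples scatter, and that scatter may be technical.

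The meninges wrap the brain in layers of fibroblasts that produce fibrillar collagens, small leucine-rich proteoglycans and glycoproteins, and that send fibroblasts inward along large vessels. Fibroblasts of the arachnoid and dura also carry transporters for organic ions, and meningeal fibroblasts are a source of retinoic acid for the underlying cortex. The product of Pla2g2e is a phospholipase A2 that cells secrete and that frees fatty acids from phospholipids outside the cell. The comparison asks whether these genes differ between Pla2g2e-deficient and wild-type sham brains.

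Signals are log2 values relative to the 75th percentile of the same array, so 0 is the 75th percentile and -1 is a signal at 50% of it. Because each probe binds with its own strength, values were compared between arrays and not between probes. In bulk tissue, fewer cells of a type and less RNA per cell cannot be told apart. Each array held 43020 non-control spots, of which 35288 to 36676 (82.0% to 85.3%) were well above background, and 0 were saturated. The 3 wild-type arrays and knockout replicate 1 lay on 1 slide, and knockout replicates 2 and 3 lay on another, so genotype and slide overlap in part. The neuron markers Syt1, Snap25, Rbfox3 and Stmn2 were present on all 6 arrays, with log2 signals between 4.80 and 5.94. The Pla2g2e probe at chr4:138438659-138438718 (mm9) read -7.11, -7.94 and -7.90 in the knockout arrays, against -7.14, -7.31 and -6.73 in the wild-type arrays (difference -0.59 ± 0.27 SE, limma with Benjamini-Hochberg adjusted p = 0.441 over all probes). A second Pla2g2e probe at chr4:138438368-138438427 read -8.47, -8.51 and -8.45 in the knockout arrays, against -8.55, -8.65 and -9.20 in the wild-type arrays. It differed by 0.33 ± 0.18 in the other direction (limma with Benjamini-Hochberg adjusted p = 0.494). Both probes are dim. The groups overlap on the first, and on the second every knockout array lay above every wild-type array, as in 7.73% of all genes. Whether either probe lies in the deleted part was not tested, so these probes do not check the genotype labels.

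Of the 39 members, 31 have 1 probe and 8 have several, and their sequences and places in the genome bear on what a difference refers to. Fbln1 has 3 probes, which are shown because their differences are not equal. Each line gives the first 30 bases of the probe, 5′ to 3′, all in lower case.
Fbln1 at chr15:85081927-85081986 (mm9, plus strand): ctgagaataacctactaccacctctctttt
Fbln1 at chr15:85115550-85115609 (mm9, plus strand): gtagtttcccaccggaacgtcgtcaatgta
Fbln1 at chr15:85115998-85116057 (mm9, plus strand): ttttttaaccaacggggctctttgtgtttc
Sparc and Foxc1 are shown because their probes differ in sign.
Sparc at chr11:55207772-55207831 (mm9, minus strand): tttaacacatgaagaagccagttcctgggc
Sparc at chr11:55208002-55208061 (mm9, minus strand): acagcaatgtgaagagcttgacaagtcttt
Sparc at chr11:55208939-55208998 (mm9, minus strand): ggctgttccgcctggggataaggtgctaac
Foxc1 at chr13:31902423-31902482 (mm9, plus strand): cttaagcagtaattgctgttgcttgttgtc
Foxc1 at chr13:31904209-31904268 (mm9, plus strand): gcctctgtagtagttctgagtcatgtgaga

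Promoters could be matched for 27 of the 39 members (34 promoters, RefSeq, GRCm38.p6). The promoters of Col1a2, Nid1 and Aldh1a2 are shown as picked examples that hold a CCAAT box near the start. They belong to 3 different functional groups, and CCAAT was found in 11 of the 27 matched members. Each line gives the 160 bases just before the start, with CCAAT, or ATTGG for the opposite strand, in capitals.
Col1a2 at chr6:4505458-4505617 (GRCm38.p6, plus strand): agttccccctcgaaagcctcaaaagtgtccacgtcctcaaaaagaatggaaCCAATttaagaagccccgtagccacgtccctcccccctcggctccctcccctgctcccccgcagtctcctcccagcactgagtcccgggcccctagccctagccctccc
Nid1 at chr13:13437442-13437601 (GRCm38.p6, plus strand): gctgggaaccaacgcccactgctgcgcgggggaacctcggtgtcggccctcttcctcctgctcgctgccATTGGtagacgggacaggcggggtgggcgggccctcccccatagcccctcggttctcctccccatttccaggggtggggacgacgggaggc
Aldh1a2 at chr9:71215629-71215788 (GRCm38.p6, plus strand): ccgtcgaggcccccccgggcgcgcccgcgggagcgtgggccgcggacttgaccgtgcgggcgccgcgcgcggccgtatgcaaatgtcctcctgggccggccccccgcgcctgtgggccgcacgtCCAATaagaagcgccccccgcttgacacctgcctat
On both strands of the 250 bases before the start, CCAAT occurred in 11 of 34 member promoters (32.4%), against 33.8% of all 32851 promoters. TATAAA occurred in 3 (8.82%), against 12.4% of all promoters, and GGGCGG, the GC box, in 17 (50%), against 32.7%. The 34 promoters belong to 27 members, so some members count more than once. Entries with the same gene and start were merged among the 32851 promoters but not among the 34, so the shares are not counted alike. By member, GGGCGG occurred in 16 of 27. A match describes the letters and not a bound site.

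Across the list, 37 of the 38 members that could be tested had a lower mean signal in the knockout arrays, and Sparc was the exception. The median difference (knockout minus wild type) was -0.43 on the log2 scale, with a range of -1.30 to 0.03, while the median over all 22578 genes tested was -0.01 and 53.7% of all genes were lower. In 18 members every knockout array lay below every wild-type array, which 12.2% of all genes also did, and in 0 members did every knockout array lie above (7.73% of all genes). By limma, 15 members had an unadjusted p under 0.05 in the lower direction, as did 9.35% of all genes. No member passed limma with Benjamini-Hochberg adjustment at 0.05, and neither did any of the 22578 genes (0%), 2810 of which (12.4%) had an unadjusted p under 0.05 and the smallest of which had an adjusted p of 0.196. The smallest adjusted p of a member was 0.266, for Bgn. Without knockout replicate 1, 59 genes passed, 13 of them lower and 0 of them members.

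The scale to which the arrays were set bears on these counts. Of the 2810 genes with an unadjusted p under 0.05, 2111 (75.1%) were lower in the knockout arrays, whereas quantile normalization gave 1258 of 2423 (51.9%) and centring each array on its median gave 1098 of 3799 (28.9%). Centring on the median moved the median of all genes to 0.10, and 34 of 38 members were then lower, with Col4a2, Fbln2 and Timp3 higher in addition to Sparc. In 13 members every knockout array then lay below every wild-type array, as in 5.48% of all genes. Relative to the median of all genes the members' median was -0.42 under both scalings. Each scaling takes 1 value per array from every gene, so this figure could hardly change and is no check on the scaling. Members that were tested had to be well above background in all arrays of at least 1 genotype. Lox, the enzyme that cross-links collagen, was the member left out, since both of its probes were at background on all 6 arrays.

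**Figure D1:**
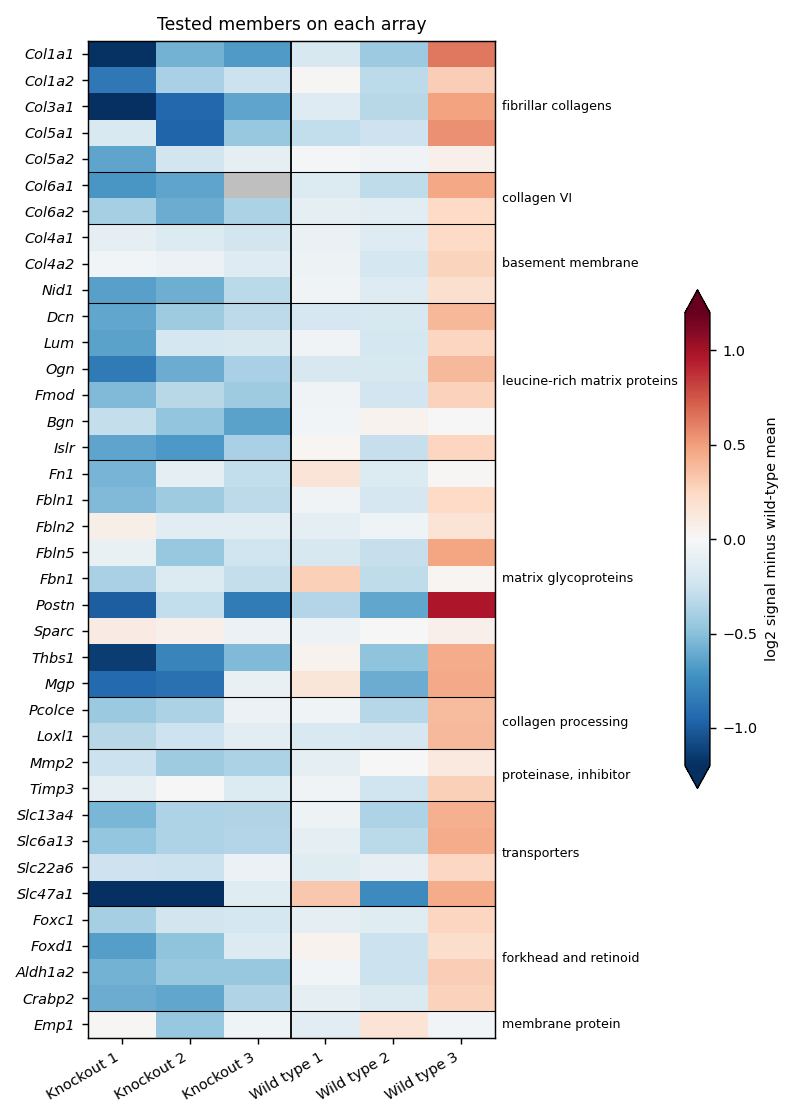
Log2 signal of the 38 tested members minus the wild-type mean of the same gene, with 1 column per array (knockout left, wild type right) and genes grouped by role. Blue is below and red above the wild-type mean, the grey cell is a spot left out as non-uniform, and values past the ends of the colour bar have its end colour. The knockout columns are mostly blue, and wild-type replicate 3 is red for most genes.

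The arrays within each genotype were not alike. The median deviation of the members from the wild-type mean was -0.54, -0.42 and -0.30 in knockout replicates 1, 2 and 3, against -0.06, -0.22 and 0.28 in wild-type replicates 1, 2 and 3. Wild-type replicate 3 was the highest array for 32 of the 37 members with a value on every array (86.5%), whereas over all genes it was highest in 28.0%. Knockout replicate 1 was the lowest array for 23 of the 37 (62.2%), against 15.2% of all genes. Without wild-type replicate 3, 34 of 38 members were lower (53.7% of all genes), the median difference was -0.29, and 18 members had groups that did not overlap (17.1% of all genes). Without wild-type replicate 2, 28 members had knockout arrays all below the wild-type ones (21.3% of all genes), and without knockout replicate 3 the count was 27 (14.6%). The count of lower members with an unadjusted p under 0.05 was 23 without wild-type replicate 2 (11.5% of all genes) and 8 without knockout replicate 1 (10.3%). The difference of 19 members, none of which passed the threshold, moved by over 1.5 times without wild-type replicate 3, in 18 of them to a smaller size. Leaving out any other array did so in 3 to 7 members.

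On the slide that held both genotypes, knockout replicate 1 lay below all 3 wild-type arrays in 30 of 38 members, as it did in 27.9% of all genes. There the median difference was -0.54, with 35 of 38 members lower. On the other slide, knockout replicate 2 lay below all 3 wild-type arrays in 32 of 38 members (28.5% of all genes) and replicate 3 in 23 of 37 (29.8%). With slide as a fixed term the median was -0.54, 15 members were lower at an unadjusted p under 0.05 (4.19% of all genes), and the smallest adjusted p of a member by limma with Benjamini-Hochberg was 0.699. With the replicate number as a block, 19 members were lower at an unadjusted p under 0.05 (8.42% of all genes).

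Fibrillar collagens are the rope-like proteins that give connective tissue its tensile strength. All 5 genes of the group had lower means in the knockout arrays (53.7% of all genes), with a median of -0.53. In 3 of them every knockout array lay below every wild-type array (12.2% of all genes). Col3a1, the collagen III chain found in loose connective tissue and vessel walls, read -4.55, -4.21 and -3.90 in the knockout arrays, against -3.42, -3.60 and -2.79 in the wild-type arrays. The knockout arrays all lay below the wild-type ones, 1.94-fold on average (difference -0.95 ± 0.26 SE, limma adjusted p = 0.301 with Benjamini-Hochberg). Col1a1, the α1 chain of collagen I, read -1.87, -1.25 and -1.36 in the knockout arrays, against -0.87, -1.12 and -0.05 in the wild-type arrays. Its groups did not overlap either, though knockout replicate 2 lay close to wild-type replicate 2, and its difference of -0.81 ± 0.31 was -0.50 without wild-type replicate 3. Col1a2, the partner α2 chain, read -0.02, 0.44 and 0.57 in the knockout arrays, against 0.85, 0.52 and 1.13 in the wild-type arrays (difference -0.50 ± 0.21). Here knockout replicate 3 lay above wild-type replicate 2, so the groups overlapped.

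Collagen V sets the diameter of collagen I fibrils. Col5a2 read -6.70, -6.29 and -6.17 in the knockout arrays, against -6.08, -6.10 and -6.01 in the wild-type arrays, a difference of -0.32 ± 0.14. The groups did not overlap, and the wild-type arrays were close together (SD 0.05, n = 3). The difference was -0.17 without knockout replicate 1, its lowest array, and -0.16 with quantile normalization. Col5a1 differed by -0.53 ± 0.30 with overlapping groups. Col3a1 and Col5a2 are neighbours on chromosome 1, with 25.6 kb between their probes and no protein-coding gene between them.

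Collagen VI forms beaded filaments that link cells to the matrix around them. For both of its chains on the list every knockout array lay below every wild-type array (12.2% of all genes). Col6a1 read 0.34 and 0.41 in knockout replicates 1 and 2, against 0.88, 0.74 and 1.51 in the wild-type arrays, a difference of -0.67 ± 0.25. The spot of knockout replicate 3 was left out as non-uniform, so the fit rests on 2 knockout values. That spot read 0.17, below all other arrays, and with it the difference was -0.74 ± 0.21. Col6a2 read -3.17, -3.37 and -3.15 in the knockout arrays, against -2.88, -2.90 and -2.53 in the wild-type arrays, a difference of -0.46 ± 0.13. Its second probe gave -0.29 ± 0.16 with overlapping groups.

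Basement membranes are thin sheets under endothelium and around vessels, built on collagen IV and linked by nidogen. All 3 members of the group had lower means in the knockout arrays (53.7% of all genes), with a median of -0.17. In 1 of them, Nid1, the groups did not overlap (12.2% of all genes). Col4a2, the α2 chain of collagen IV, read -0.91, -0.95 and -1.03 in the knockout arrays, against -0.94, -1.08 and -0.61 in the wild-type arrays. The 2 genotypes overlapped, and the difference of -0.09 ± 0.13 was 0.05 without wild-type replicate 3. Col4a1, which shares a promoter region with Col4a2 and runs in the opposite direction, differed by -0.17 ± 0.12. Its probe is printed 10 times on each array, and the spots of an array had an SD between 0.04 and 0.12, which shows the precision of a spot (1 spot of knockout replicate 3 was left out of the fit as non-uniform). Nid1, which encodes nidogen, read -2.13, -2.06 and -1.79 in the knockout arrays, against -1.51, -1.62 and -1.28 in the wild-type arrays. These groups did not overlap (difference -0.52 ± 0.13, limma adjusted p = 0.283 with Benjamini-Hochberg), and the other Nid1 probes, both much dimmer, gave -0.38 ± 0.17 and -0.16 ± 0.28.

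**Figure D2:**
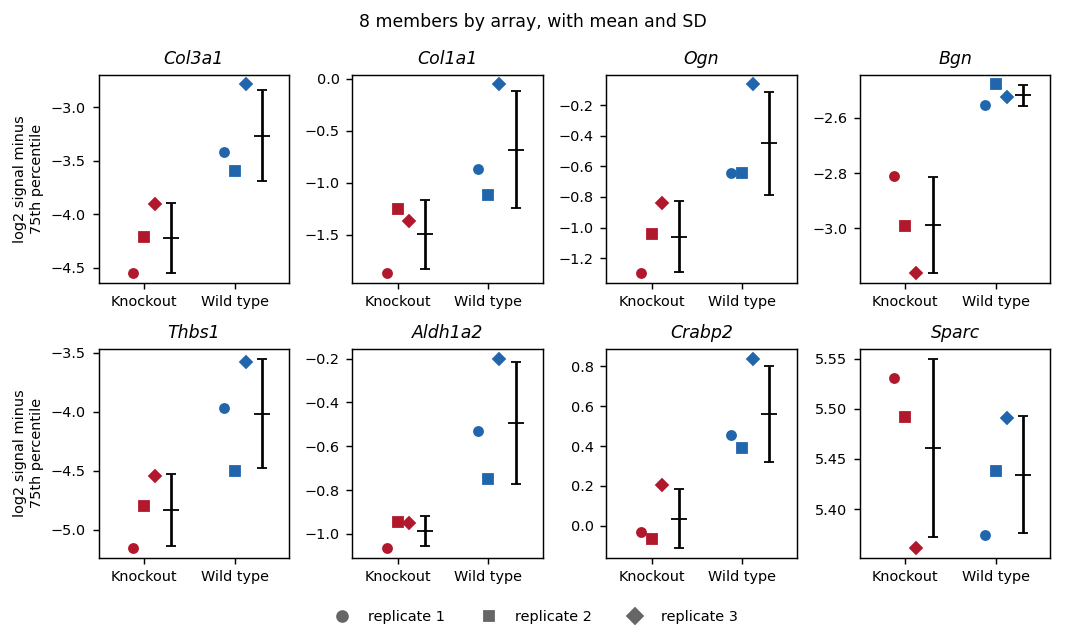
Log2 signal relative to the 75th percentile on each array for 8 members, with knockout points left and wild-type points right in each panel and bars giving mean and SD (n = 3). The vertical scales differ between panels. The groups do not overlap in 7 of the panels, and in Sparc they do. The 8 genes are a selection: of the 38 tested members, groups did not overlap in 18 (12.2% of all genes) and overlapped in 20.

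Most proteins of the leucine-rich group bind collagen fibrils and control their spacing. All 6 genes of this group had lower means in the knockout arrays (53.7% of all genes), with a median of -0.46. In 5 of them the groups did not overlap (12.2% of all genes). Bgn, which encodes biglycan, read -2.81, -2.99 and -3.16 in the knockout arrays, against -2.55, -2.48 and -2.53 in the wild-type arrays. The wild-type arrays were within an SD of 0.04 and the knockout arrays within 0.18, and the difference of -0.47 ± 0.10 was also -0.47 without wild-type replicate 3. Bgn is therefore a member in which that array was not the highest. Ogn, which encodes osteoglycin (mimecan), read -1.30, -1.04 and -0.84 in the knockout arrays, against -0.64, -0.65 and -0.06 in the wild-type arrays, a difference of -0.61 ± 0.20. Dcn, which encodes decorin, read -0.17, 0.02 and 0.14 in the knockout arrays, against 0.24, 0.25 and 0.85 in the wild-type arrays, a difference of -0.45 ± 0.19. Both had wild-type replicate 3 well above the other wild-type arrays, and their differences without it were -0.42 and -0.25.

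Fmod, which encodes fibromodulin, read -2.40, -2.20 and -2.30 in the knockout arrays, against -1.91, -2.10 and -1.59 in the wild-type arrays (difference -0.43 ± 0.14). Islr, a protein with an immunoglobulin domain and leucine-rich repeats, read -0.96, -1.01 and -0.71 in the knockout arrays, against -0.30, -0.60 and -0.06 in the wild-type arrays (difference -0.57 ± 0.16). Neither gene's groups overlapped. Lum, which encodes lumican and lies 54.9 kb from Dcn between the probes, differed by -0.35 ± 0.17 with overlapping groups.

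The matrix glycoproteins were the most mixed group. Of 9 genes, 8 had lower means in the knockout arrays (53.7% of all genes), with a median of -0.32. In 2 of these the groups did not overlap (12.2% of all genes). Thbs1, which encodes thrombospondin 1, a regulator of TGF-β activation and vessel growth, read -5.16, -4.80 and -4.54 in the knockout arrays, against -3.97, -4.50 and -3.57 in the wild-type arrays. The groups were next to each other, with knockout replicate 3 just below wild-type replicate 2, and the difference of -0.82 ± 0.27 was 1.76-fold. Fbln1, which encodes fibulin 1, read -2.57, -2.46 and -2.35 in the knockout arrays, against -2.08, -2.24 and -1.80 in the wild-type arrays on the probe at chr15:85115998-85116057, a difference of -0.42 ± 0.13. The neighbouring probe at chr15:85115550-85115609 gave -0.39 ± 0.15, and the probe at chr15:85081927-85081986 gave -0.12 ± 0.11. All 3 are in the same direction, and groups on the last 2 overlapped. No test of the difference between probes was made.

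Sparc, a collagen-binding protein that astrocytes and endothelium also make, read 5.53, 5.49 and 5.36 in the knockout arrays, against 5.37, 5.44 and 5.49 in the wild-type arrays. The groups overlapped fully and the difference was 0.03 ± 0.07. The probe at chr11:55208002-55208061 read 1.33, 1.32 and 1.1 in the knockout arrays, against 1.13, 1.03 and 0.78 in the wild-type arrays, a difference of 0.27 ± 0.12, and the probe at chr11:55207772-55207831 gave -0.03 ± 0.09. Fbln2, which encodes fibulin 2, read -1.94, -2.14 and -2.15 in the knockout arrays, against -2.12, -2.06 and -1.85 in the wild-type arrays, a difference of -0.06 ± 0.10. The 2 genotypes overlapped here too.

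The other glycoproteins had overlapping groups. Postn, which encodes periostin, a protein of remodelling connective tissue, differed by -0.71 ± 0.44, and by -0.22 without wild-type replicate 3, where it read -4.09 against -5.42 and -5.68 in the other wild-type arrays. Mgp, which encodes matrix Gla protein, an inhibitor of calcification, differed by -0.64 ± 0.35. Fn1 (fibronectin) differed by -0.32 ± 0.14, and by -0.20 without knockout replicate 1. Fbn1 (fibrillin 1, the core of microfibrils) differed by -0.28 ± 0.16, by -0.14 without wild-type replicate 1 and by -0.12 with quantile normalization. Fbln5 (fibulin 5, which helps assemble elastic fibres) differed by -0.26 ± 0.22, and by -0.03 without wild-type replicate 3. A second probe of Fbln5 was at background on all 6 arrays.

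The tested members that process collagen or regulate matrix breakdown all had lower means in the knockout arrays (53.7% of all genes). In 1 of these 4, Mmp2, the groups did not overlap (12.2% of all genes). Pcolce, which enhances the removal of the collagen propeptide, read 0.76, 0.82 and 1.13 in the knockout arrays, against 1.16, 0.86 and 1.59 in the wild-type arrays (difference -0.30 ± 0.20). Loxl1, a relative of Lox that cross-links elastin, differed by -0.24 ± 0.18, with -0.10 ± 0.18 on its second probe. Mmp2, the proteinase gelatinase A, read -5.15, -5.31 and -5.27 in the knockout arrays, against -5.00, -4.89 and -4.77 in the wild-type arrays. Mmp2 had groups that did not overlap, an SD of 0.09 in the knockout arrays and 0.12 in the wild-type arrays (n = 3 each), and a difference of -0.35 ± 0.09 (limma adjusted p = 0.280 with Benjamini-Hochberg). Timp3, an inhibitor of such proteinases that binds to the matrix, read 1.67, 1.78 and 1.62 in the knockout arrays, against 1.74, 1.54 and 2.07 in the wild-type arrays. Its groups overlapped, and the difference of -0.09 ± 0.14 was 0.05 without wild-type replicate 3.

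The transporters on the list are found in fibroblasts of the arachnoid barrier and the other meningeal layers. All 4 had lower means in the knockout arrays (53.7% of all genes). Their median was -0.41, and -0.19 without wild-type replicate 3. Slc47a1, a proton-coupled exporter of organic cations, differed by -1.30 ± 0.57 (2.46-fold), the largest size among the members at this setting, but the arrays of each genotype were far apart. With normexp background correction its difference was -0.68, smaller in size than those of Col1a1 (-0.78) and Col3a1 (-0.75). It read -6.31, -6.12 and -4.48 in the knockout arrays, against -4.02, -5.10 and -3.90 in the wild-type arrays, so that knockout replicate 3 lay above wild-type replicate 2. Slc6a13, the GABA and betaine transporter GAT2, read -0.44, -0.34 and -0.33 in the knockout arrays, against -0.09, -0.30 and 0.47 in the wild-type arrays. Its groups did not overlap by a narrow gap, and the difference of -0.40 ± 0.20 was -0.17 without wild-type replicate 3. Slc13a4, a sodium-coupled sulfate transporter, read 0.87, 1.05 and 1.05 in the knockout arrays, against 1.36, 1.05 and 1.85 in the wild-type arrays (difference -0.43 ± 0.20), where wild-type replicate 2 lay among the knockout arrays. Slc22a6, the organic anion transporter OAT1, differed by -0.19 ± 0.13 with overlapping groups.

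Foxc1 and Foxd1 are forkhead transcription factors of the mesenchyme that forms the meninges, and Aldh1a2 and Crabp2 make and bind retinoic acid. All 4 had lower means in the knockout arrays (53.7% of all genes), with a median of -0.46. In 3 the groups did not overlap (12.2% of all genes). Aldh1a2 read -1.06, -0.95 and -0.95 in the knockout arrays, against -0.53, -0.75 and -0.20 in the wild-type arrays, a difference of -0.49 ± 0.15. The knockout arrays were close together (SD 0.07), and the wild-type arrays were spread (SD 0.28, n = 3 each). Crabp2 read -0.03, -0.07 and 0.20 in the knockout arrays, against 0.45, 0.39 and 0.84 in the wild-type arrays, a difference of -0.53 ± 0.14 (limma adjusted p = 0.301 with Benjamini-Hochberg). These groups were also apart.

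Foxc1 read -1.26, -1.08 and -1.07 in the knockout arrays, against -0.97, -1.0 and -0.60 in the wild-type arrays on the probe at chr13:31902423-31902482, a difference of -0.28 ± 0.13. On the dim probe at chr13:31904209-31904268 it read -8.55, -7.48 and -8.28 in the knockout arrays, against -9.09, -8.26 and -7.91 in the wild-type arrays, a difference of 0.32 ± 0.39. The groups were apart on the bright probe and overlapped on the dim one, and the mean over both gave 0.02. Foxd1 differed by -0.43 ± 0.17 with overlapping groups. Emp1, a membrane protein of epithelia and fibroblasts, read -2.48, -2.94 and -2.54 in the knockout arrays, against -2.62, -2.32 and -2.53 in the wild-type arrays, a difference of -0.16 ± 0.15. Its groups overlapped, and unlike most members it was not highest in wild-type replicate 3.

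**Figure D3:**
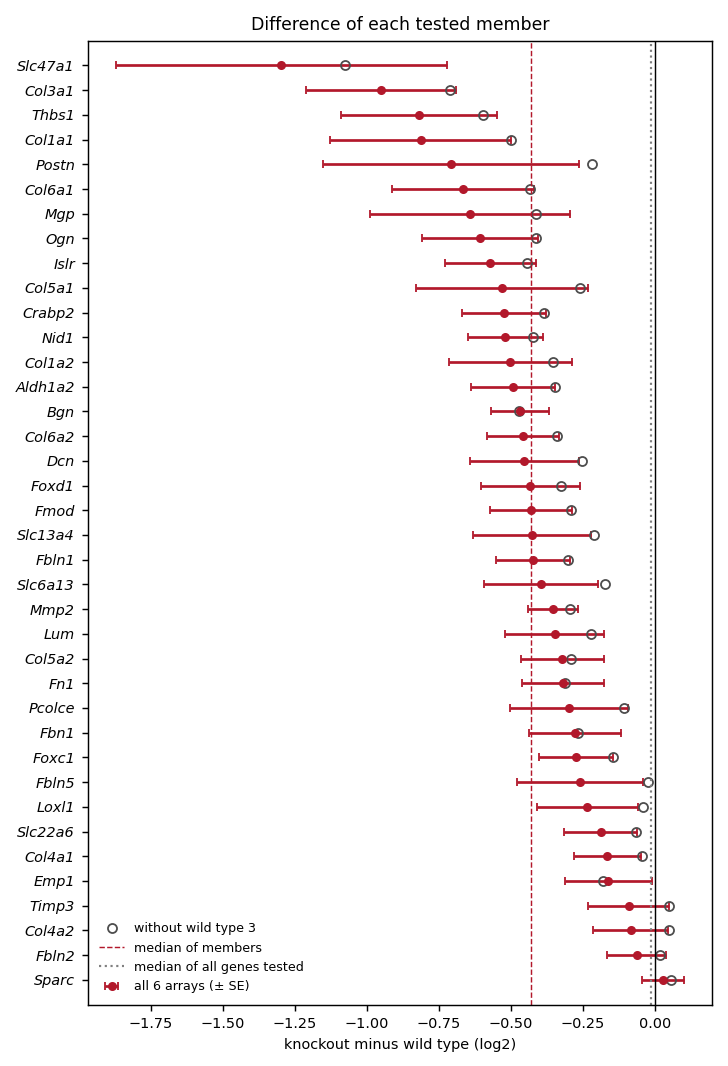
Difference (knockout minus wild type, log2) of each tested member with its SE from all 6 arrays (filled points) and without wild-type replicate 3 (open circles), sorted by size, largest at the top. The dashed line is the members' median of -0.43 and the dotted line the median of all genes at -0.01. Open circles lie nearer to 0 for most members, and those of Col4a2, Fbln2 and Timp3 join Sparc above 0.

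Counted over probes, the 47 of 50 that were tested gave 44 lower and 3 higher in the knockout arrays. Of these, 18 had groups that did not overlap and were lower, as did 11.9% of all 31954 tested probes. Of the 6 members with several tested probes, 4 had the same direction on all of them.

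Genes of the same kind that are not on the list were also described. Of 60 further matrix genes, 58 were tested, and the median was -0.26. In the knockout arrays 52 had lower means (53.7% of all genes) and 6 higher. Groups did not overlap in 15 lower genes (12.2% of all genes) and 1 higher gene (7.73% of all genes). Timp2, Agrn, Ccn2 and Bmp1, which had the highest mean signal of that list, differed by -0.14 ± 0.13, -0.01 ± 0.07, -0.51 ± 0.15 and -0.26 ± 0.20. Of 42 further fibroblast genes, 40 were tested, 34 were lower and 6 higher, and the median was -0.23. Groups did not overlap in 9 lower and 2 higher genes, beside the same shares of all genes (12.2% and 7.73%). Ptgds, the prostaglandin D synthase of the leptomeninges, differed by -0.14 ± 0.08, Igfbp6 by 0.31 ± 0.11, Foxp1 by -0.02 ± 0.11 and Gjb6 by 0.19 ± 0.08. The last 2 are also made by neurons and astrocytes. Over the 98 tested genes of both lists, 24 had an unadjusted limma p under 0.05 in the lower direction (9.35% of all genes). In the higher direction 2 did, as did 699 of all 22578 genes. None passed limma with Benjamini-Hochberg adjustment. Without wild-type replicate 3, 78 of the 98 were lower (53.7% of all genes) and the median was -0.16, against -0.25 with it.

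Markers of other cell types and regions also differed between arrays, and their part in the members' differences was not tested. The choroid plexus is a secretory epithelium with a fibroblast stroma. Of its 22 markers, 21 had lower means in the knockout arrays (53.7% of all genes), with a median of -0.59. Their summed level, in multiples of the 75th percentile, was 26.1 to 34.9 in the knockout arrays, against 25.9 to 47.6 in the wild-type arrays. Such a sum weighs the genes with the highest signal most, here Enpp2 and Ttr, and does not give the level of a whole list. The same limit holds for the sums of the other lists. The median without wild-type replicate 3 was -0.23. Ttr, the main secreted product of that epithelium, read 3.65, 2.72 and 2.76 in the knockout arrays, against 4.03, 1.97 and 4.41 in the wild-type arrays, so the genotypes overlapped. Over the list, the median deviation was -0.25, -0.84 and -0.68 in knockout replicates 1, 2 and 3. In wild-type replicates 1, 2 and 3 it was 0.25, -0.76 and 0.60. In 5 of the 22 markers every knockout array lay below every wild-type array (12.2% of all genes).

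All 20 striatum markers were lower in the knockout arrays (53.7% of all genes), with a median of -0.41. Without wild-type replicate 3 the median was -0.06, with 12 of 20 lower (53.7% of all genes). Their sum was 62.7 to 75.6 in the knockout arrays, against 61.2 to 129 in the wild-type arrays, the highest being wild-type replicate 3. Of 15 border macrophage markers, 13 were tested and 12 were lower (53.7% of all genes). Their median was -0.49, and -0.10 without wild-type replicate 3. The sum was 2.22 to 2.47 in the knockout arrays, against 2.20 to 4.81 in the wild-type arrays. In median deviation wild-type replicate 3 stood above the other arrays in the striatum and macrophage lists, as it did for most members. It was also the highest array in the choroid plexus, pericyte and smooth muscle, endothelium, astrocyte, and further matrix and fibroblast lists. In the neuron and oligodendrocyte lists it was not. Of 17 pericyte and smooth muscle markers, which share the vessel wall with fibroblasts, 16 were lower (53.7% of all genes), with a median of -0.19. In 4 of them the groups did not overlap (12.2% of all genes). Without wild-type replicate 3 the median was -0.18, with 15 of 17 lower. The sum was 7.99 to 9.19 in the knockout arrays, against 9.74 to 11.1 in the wild-type arrays. Of 25 endothelial markers 13 were lower (53.7% of all genes), with a median of -0.06, and -0.01 without wild-type replicate 3. Their sum was 48.2 to 54.4 in the knockout arrays, against 47.4 to 54.4 in the wild-type arrays.

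**Figure D4:**
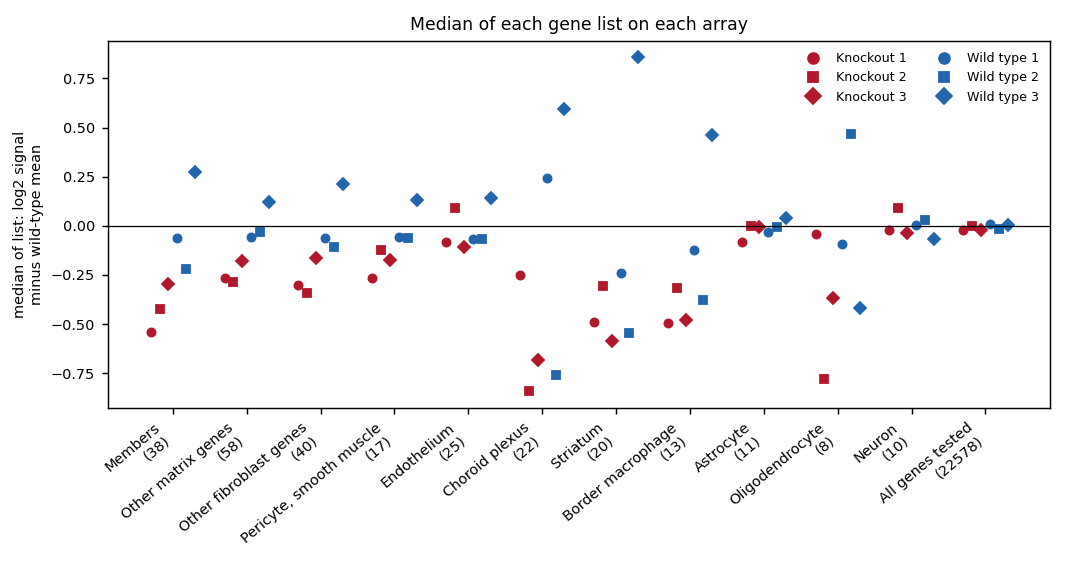
Median, over the tested genes of each list (number in brackets), of the log2 signal minus the wild-type mean, with 1 point per array, knockout left and wild type right in each list. For the members the 3 knockout arrays lie at -0.54 to -0.30, below the wild-type arrays at -0.22 to 0.28. Wild-type replicate 2 lies among the knockout arrays in the choroid plexus, striatum, border macrophage, endothelium, astrocyte and neuron lists and over all genes.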

How the data were processed

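Total RNA was labelled with Cy3, per the labels' protocols. The deposited spot intensities are linear gene signals extracted by Agilent Feature Extraction 12.1.1.1, background-subtracted and detrended, per the file headers, which name mm9 as the build. The deposited processed signal was put on a log2 scale here, less the 75th percentile of the array's non-control spots. Spots marked as non-uniform or population outliers were left out, and spots of a probe were averaged. A probe was tested when it was well above background on all 3 arrays of a genotype with at least 2 values in each genotype (31954 of 39429 probes). The probe with the highest mean stood for its gene. Genes were named by the files or, through accessions, by RefSeq (GRCm38.p6), and 2030 probes had no name. Coordinates of probes are mm9 as in the files. No mm9 annotation was used here, so exons and untranslated regions are not given.

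Genotypes were compared with limma 3.58.1 in R 4.3.3, without covariates, two-sided, with Benjamini-Hochberg adjustment over 22578 genes at 0.05. The number of arrays limits the precision. Fits that leave out an array kept the same genes and probes. Alternatives covered background correction (normexp with offset 50 on the deposited mean signal and local background intensities), scaling, filters, probe choice, slide and single arrays. Samples were not treated as paired by replicate number. Same-numbered arrays correlated at -0.02, -0.13 and -0.12 in their deviations from the group means, and differently numbered ones at -0.01 to 0.12. Deviations within a group sum to 0, so these correlations depend on each other and cannot settle whether samples were paired. The members, their groups and the other lists were chosen with earlier results of these data known. Every member is named, and values by array are given for the member with the highest signal of each group, members with groups that do not overlap, the 3 largest and 3 smallest differences and members with probes of opposite sign. Of other lists the 4 genes with the highest mean are eligible.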

Additional observations from a re-analysis of the deposited data

How the results depend on the processing

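In 18 alternatives the members' median difference stayed below 0, between -0.54 and -0.29 (without wild-type replicate 3). The lowest value came with slide as a fixed block and on the slide with both genotypes, which give the same estimate from knockout replicate 1 alone. Leaving out single arrays gave -0.54 to -0.29. The count of lower members was 34 to 38 of 38 without single arrays. No gene passed the threshold in limma with Benjamini-Hochberg adjustment under any alternative except leaving out knockout replicate 1, where 59 genes passed, so single arrays gave 0 to 59. The further matrix and fibroblast genes had a median of -0.13 with arrays centred on their median, and -0.29 to -0.16 without single arrays. With a replicate block the members' median was -0.43, 19 members were lower at an unadjusted p under 0.05 (8.42% of all genes) and the smallest adjusted p of a member was 0.330. The block changed no call. The sign turned for Col4a2 (0.033 centred on the median, 0.048 without wild-type replicate 3), Timp3 (0.027 and 0.049 in the same settings) and Fbln2 (0.055 and 0.016 in the same settings, 0.071 with slide as a fixed block and on the slide with both genotypes). It also turned for Emp1 (0.013 with slide as a fixed block and on the slide with both genotypes), Foxc1 (0.022 as the mean over probes) and Sparc (-0.0032 without wild-type replicate 1, -0.0079 without knockout replicate 1). Without single arrays these genes ranged from -0.19 to 0.048 for Col4a2, -0.21 to 0.049 for Timp3, -0.13 to 0.016 for Fbln2 and -0.0079 to 0.077 for Sparc. The cause was not tested. Over the members 633 values kept their direction and side of the threshold, and 13 turned. Members with all knockout arrays below all wild-type arrays numbered 13 with median centring (5.48% of all genes), 30 on the slide with both genotypes (27.9%), 28 without wild-type replicate 2 (21.3%) and 27 without knockout replicate 3 (14.6%), against 18 with all arrays (12.2%). Dim probes, such as those of Lox and the second probe of Fbln5, give no usable value above background.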

Other observations

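The 11 astrocyte markers had a median difference of 0.00 with 5 lower and 6 higher in the knockout arrays, and the 10 neuron markers had a median of 0.02 with 5 lower and 5 higher. Aldoc, the aldolase of astrocytes, read 6.73, 7.02 and 6.92 in the knockout arrays, against 6.83, 6.98 and 6.82 in the wild-type arrays, with overlapping groups. Of 8 oligodendrocyte markers 7 were lower (53.7% of all genes), with a median of -0.39, but the array order was another. The median deviation was -0.04, -0.78 and -0.37 in knockout replicates 1 to 3, against -0.09, 0.47 and -0.42 in wild-type replicates 1 to 3. Mbp, which encodes myelin basic protein, read 3.47, 3.34 and 3.36 in the knockout arrays, against 2.94, 3.21 and 3.03 in the wild-type arrays. Every knockout array thus lay above every wild-type array for Mbp, as in 7.73% of all genes. The difference was 0.33 ± 0.09 (limma adjusted p = 0.301 with Benjamini-Hochberg), and Mbp was the only 1 of the 8 markers that was higher.

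Among the further fibroblast genes, Osr1 and Slc22a2 were picked out after their values were seen. Osr1, a transcription factor of connective tissue precursors, differed by -0.75 ± 0.11, and Slc22a2, an organic cation transporter, by -0.55 ± 0.08. In each, all 3 knockout arrays lay below every wild-type array, as in 12.2% of all genes. Their adjusted p of 0.196 (limma with Benjamini-Hochberg) does not pass 0.05. It is the smallest of the fit, but other genes share that value, so it does not set these 2 apart.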
